A study of Mus musculus with 10 samples.

Results

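The 2 arrays of E16.5 mouse fetal ovary were compared with the 2 arrays of E14.5 mouse fetal ovary, 4 of the 10 arrays in the series, over all 45037 probe sets other than controls. The series follows the whole embryonic ovary on Mouse430_2 oligonucleotide arrays, with 2 arrays a stage, at E11.5, E12.5 and E14.5 and later at E16.5 and E18.5 (days post coitum). Per the labels, the 2 preparations of a stage were independent, total RNA was isolated with Trizol and the label was biotin. No genotype, treatment or sorting step is named for any stage, and the sources used here give neither the strain nor the number of embryos per preparation. The p-values below measure the spread between such preparations.

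In the fetal mouse ovary, germ cells descend from primordial germ cells that express pluripotency regulators such as Pou5f1 and Sox2. They divide by mitosis, respond to retinoic acid by switching on Stra8, and enter meiotic prophase, in which cohesins and axis proteins organise the chromosomes, programmed DNA breaks are made and repaired by strand exchange, and the synaptonemal complex joins homologous chromosomes. Somatic pregranulosa cells, marked by Foxl2, surround the germ cells and later enclose them in follicles. Germ cell and pregranulosa genes were present at both stages. Ddx4, a germ cell RNA helicase, had scaled signals of 579 and 523 at E16.5 and 933 and 1060 at E14.5, and Foxl2 had 548 and 531 at E16.5 and 251 and 214 at E14.5.

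A scaled signal is the deposited intensity of a probe set after each array was brought to a common 75th percentile of 139.6. Because whole ovaries were measured, fewer cells of a type and less RNA per cell cannot be told apart in any value below. All 4 arrays were washed in 1 run, per the deposited records. Within that run the E14.5 arrays were on wash modules 1 and 2 and the E16.5 arrays on modules 3 and 4. Stage and module therefore cannot be told apart in this comparison. Log2 signals correlated at 0.950 between the E16.5 arrays and at 0.958 between the E14.5 arrays, against 0.926 to 0.944 between stages. The 95th percentile of 27 unspiked control probe sets, used here as each array's background, was 19.2 and 32.4 at E16.5 and 27.0 and 26.7 at E14.5. The 3′ to 5′ signal ratio of Actb was 1.63 and 1.51 at E16.5, against 1.91 and 2.22 at E14.5. The Gapdh ratio was 0.974 and 1.16 at E16.5, against 0.826 and 0.796 at E14.5. The control probe set for the mouse B2 repeat read 16010 and 23410 at E16.5, against 11630 and 12040 at E14.5, and the hybridisation spikes had medians of 1381 and 1401 at E16.5, against 1029 and 862 at E14.5. Whether these differences take part in any result below was not tested.

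In the main fit, more of the probe sets that passed were lower than higher at E16.5. Of 23729 probe sets tested, 940 (3.96%) passed an adjusted p of 0.05, 343 higher at E16.5 (1.45%) and 597 lower (2.52%), in limma's moderated test with Benjamini-Hochberg adjustment. Counted once per gene by its brightest probe set, 544 of 11920 genes (4.56%) passed, 177 higher (1.48%) and 367 lower (3.08%). Every list count below is to be read beside the shares of 1.48% and 3.08%. A single called member says little about its list. The direction of this split depended on the processing. With the deposited scaling it was 489 probe sets higher and 552 lower. At an unadjusted p of 0.05 in limma's test, that scaling gave 2766 higher and 2402 lower, against 2134 and 2891 in the main fit. Without E14.5 replicate 2, more of the probe sets that passed were higher than lower. On the log2 scale, 120 of the higher and 242 of the lower genes changed by at least 2-fold, and the median change over all genes tested was -0.04. The 2 arrays of one stage lay wholly above the 2 of the other in 54.8% of all genes tested (51.4% of probe sets), and in all 544 genes that passed.

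The number of calls rested on single arrays. It was 813 probe sets without E16.5 replicate 1, 40 without E16.5 replicate 2, 252 without E14.5 replicate 1 and 89 without E14.5 replicate 2, and 452 when the 4 arrays were fitted alone. With both E12.5 arrays in the fit, no probe set passed limma's test (463 higher and 419 lower at an unadjusted p of 0.05). One of those arrays, E12.5 replicate 2, correlated at only 0.418 to 0.438 with the 8 arrays used, and the median SE of the change was 0.484 with it, against 0.258 without the E12.5 arrays. Of the 84 named genes that passed, 9 passed with each of the 4 arrays left out, namely Bzw2, Hbb-y, Rhox5, Dppa5a, Hba-x, Dppa3, Stra8, Cyct and Hmga2. A gene above the filter on both E14.5 arrays alone, such as Sox2, Lin28a, Sall4 or Phlda2, was not tested when either of these arrays was left out. Such a gene entered the test only through the stage where it was high, as did Pou5f1, Dppa2, Tfap2c and Rec8. Lhx8, Mapk7 and Plcxd1, among others, entered only through E16.5. Without the filter Pou5f1, Dppa2 and Mapk7 did not pass, while the other genes given above as entering through a single stage did. Dmrt1, Cpa1 and Myh3, which entered only through E14.5, did not pass without the filter either. The same held for Mfap4, Cdc42ep2, Ms4a15 and Ssmem1, which entered only through E16.5.

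**Figure D1:**
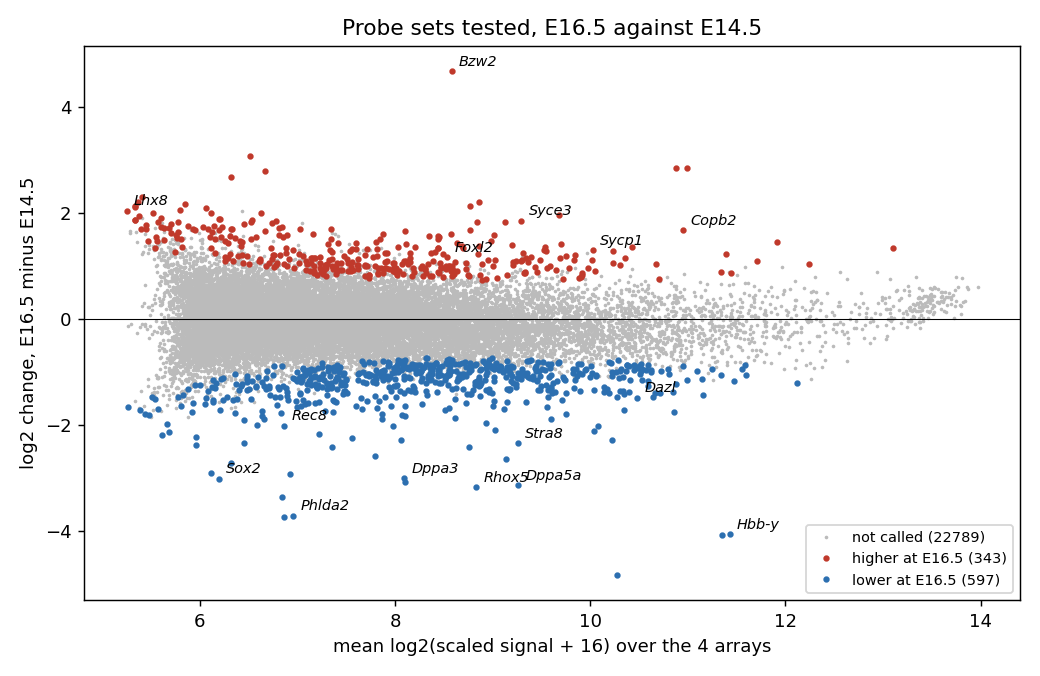
Log2 change (E16.5 minus E14.5) of each tested probe set against its mean log2(scaled signal + 16) over the 4 arrays. Red points are the 343 probe sets higher at E16.5, blue points the 597 lower, grey points did not pass; Bzw2 has the largest increase and the lowest points are 3 probe sets of Hbb-y.

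Genes of the pluripotency network fell in part. Of 20 tested members of the pluripotency list, 6 were lower at E16.5 and 1 was higher, and the list's median change was -0.56, beside -0.04 over all genes. Sox2, an HMG-box pluripotency factor, had signals of 19.8 and 2.61 in E16.5 ovaries, against 170 and 215 in E14.5 ovaries (log2 change -3.00 ± 0.39 (SE), adjusted p = 0.00226). Pou5f1, the POU factor at the centre of the network, read 8.30 and 17.98 in E16.5 ovaries, against 134 and 105 in E14.5 ovaries (log2 change -2.23 ± 0.49 (SE), adjusted p = 0.0292). Both E16.5 arrays of Pou5f1 were under background, so its level was at least 4.75-fold lower, and 1 of the 2 E16.5 arrays of Sox2 was under background. The Pou5f1 call was lost with 1 added to the signals in place of 16, without the filter and without the intensity trend. Sall4, a zinc finger factor that acts with Pou5f1, read 13.8 and 34.6 in E16.5 ovaries, against 160 and 204 in E14.5 ovaries (log2 change -2.34 ± 0.34 (SE), adjusted p = 0.00529). A second Sall4 probe set had a log2 change of -1.43 and did not pass.

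The developmental pluripotency-associated genes shared this direction. Dppa5a, which encodes a KH-domain RNA-binding protein, had signals of 167 and 220 in E16.5 ovaries, against 1885 and 1731 in E14.5 ovaries (log2 change -3.13 ± 0.23 (SE), adjusted p = 1.34e-05). Dppa4 read 51.0 and 66.4 at E16.5 and 268 and 150 at E14.5 (log2 change -1.54 ± 0.26 (SE), adjusted p = 0.0107). Dppa2, its nuclear partner, read 15.7 and 1.93 at E16.5 and 63.1 and 70.8 at E14.5, both E16.5 values under background, which makes it at least 2.68-fold lower (adjusted p = 0.0462). In each of these 6 genes both E16.5 arrays lay below both E14.5 arrays. The stages did not overlap in any gene that passed, nor in 54.8% of all genes tested, so this adds no support. Nanog was not tested because its signals, 18.2 and 3.96 at E16.5 and 58.2 and 33.9 at E14.5, were under the filter on low values.

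The one member that rose was Nr0b1, an orphan nuclear receptor also known for its place in gonadal somatic cells, with 162 and 201 at E16.5 and 79.0 and 79.4 at E14.5 (log2 change 1.04 ± 0.22 (SE), adjusted p = 0.0263). The 13 members that did not pass ran from -1.02 to 0.77 on the log2 scale, among them Klf5 at -1.02, L1td1 at -0.85 and Zfp42 at -0.51, named here after their values were seen. The other Klf5 probe set had a log2 change of 0.04. Of the lower members, Sox2, Pou5f1, Sall4 and Dppa2 were tested only because of their high E14.5 values. Without the filter 4 members of the list were lower. The count of lower members was 5 without E16.5 replicate 1, 3 without E16.5 replicate 2, 1 without E14.5 replicate 1 and 2 without E14.5 replicate 2.

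Primordial germ cell genes fell in part, with 8 of 19 tested members lower, 0 higher and a median change of -0.87. Dppa3, known as Stella and a maternal factor protecting DNA methylation in the zygote, had signals of 94.8 and 68.3 in E16.5 ovaries, against 805 and 705 in E14.5 ovaries (log2 change -2.99 ± 0.24 (SE), adjusted p = 3.00e-05). Lin28a, an RNA-binding protein that blocks let-7 maturation, read 6.04 and 28.0 at E16.5 and 148 and 238 at E14.5, at least 7.53-fold lower since both E16.5 values were under background (adjusted p = 0.00335). A second Lin28a probe set fell by 2.37 on the log2 scale. Tfap2c, a transcription factor of germ cell specification, read 11.6 and 9.28 at E16.5 and 70.4 and 68.6 at E14.5, at least 2.79-fold lower by the same rule (adjusted p = 0.0164).

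Rhox5, Rhox6 and Rhox9, homeobox genes of the X-linked Rhox cluster, fell. Rhox5 had signals of 120 and 154 in E16.5 ovaries, against 1491 and 1220 in E14.5 ovaries (log2 change -3.17 ± 0.24 (SE), adjusted p = 2.45e-05). Rhox6 read 75.4 and 74.9 at E16.5 and 559 and 500 at E14.5 (log2 change -2.58 ± 0.46 (SE), adjusted p = 0.0126), and Rhox9, named after its values were seen, read 104 and 108 at E16.5 and 426 and 435 at E14.5 (log2 change -1.87 ± 0.23 (SE), adjusted p = 0.00128). The E16.5 and E14.5 arrays did not overlap in any of the 3 genes, as in every gene that passed and 54.8% of genes tested. Alpl, the tissue-nonspecific alkaline phosphatase used to stain primordial germ cells, read 62.2 and 65.8 at E16.5 and 138 and 124 at E14.5, and Cd9, a tetraspanin, read 102 and 37.7 at E16.5 and 209 and 185 at E14.5 (log2 changes -0.87 and -1.42, adjusted p = 0.0447 and 0.0297).

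Kit, the receptor of germ cells for stem cell factor, read 78.8 and 45.4 at E16.5 and 106 and 148 at E14.5 and did not pass (log2 change -0.89 ± 0.25 (SE), adjusted p = 0.0599). Prdm14 was under the filter, with 5.47 and 4.06 at E16.5 and 22.9 and 45.1 at E14.5. The other members that did not pass ran from -0.97 to 1.13, the highest being Pecam1, also an endothelial marker. The count of lower members was 8 without E16.5 replicate 1, 4 without E16.5 replicate 2, 2 without E14.5 replicate 1 and 2 without E14.5 replicate 2.

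Oncofetal growth regulators, partly shared with the list above, had 4 of 7 tested members lower and 0 higher. Hmga2, a chromatin architectural protein of proliferating embryonic cells, had signals of 281 and 306 in E16.5 ovaries, against 879 and 1084 in E14.5 ovaries (log2 change -1.68 ± 0.20 (SE), adjusted p = 0.00105), and its other 2 probe sets fell by 1.79 and 1.95 on the log2 scale. Igf2bp1 read 49.4 and 58.4 at E16.5 and 127 and 142 at E14.5 and Igf2bp3 read 245 and 279 at E16.5 and 557 and 444 at E14.5 (log2 changes -1.11 and -0.89, adjusted p = 0.0243 and 0.0449). These mRNA-binding proteins act on Igf2 and other growth transcripts. Igf2 itself had a log2 change of 0.36 and did not pass. The 2 other Igf2bp1 probe sets, with log2 changes of -0.64 and 0.08, did not pass. The count was 2 without E16.5 replicate 1, 2 without E16.5 replicate 2, 1 without E14.5 replicate 1 and 1 without E14.5 replicate 2.

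Broader germ cell genes moved less evenly over the same interval. Dazl, a translational regulator needed for germ cells to form gametes, had signals of 1093 and 647 in E16.5 ovaries, against 2270 and 2490 in E14.5 ovaries (log2 change -1.48 ± 0.26 (SE), adjusted p = 0.012), though its second probe set had a log2 change of -0.17. Ddx4 fell by a smaller amount (log2 change -0.84 ± 0.19 (SE), adjusted p = 0.0347). Mael, a piRNA pathway protein, read 1000 and 823 in E16.5 ovaries, against 855 and 1070 in E14.5 ovaries, and these values overlapped (log2 change -0.08, adjusted p = 0.875). Whether the number of germ cells takes part in the falls of pluripotency and primordial germ cell genes was not tested.

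**Figure D2:**
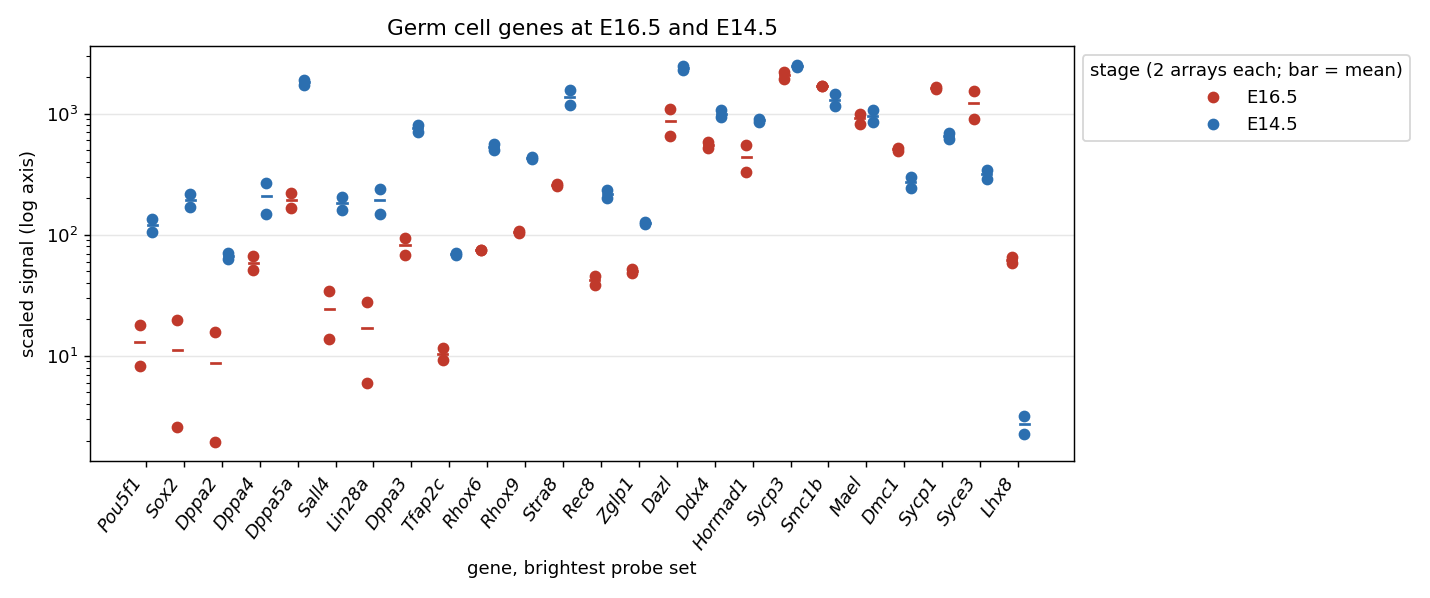
Scaled signal (log axis) of 24 germ cell genes on each array, E16.5 in red left of E14.5 in blue; bars are the means of 2 arrays. Pluripotency and primordial germ cell genes lie lower at E16.5, while Dmc1, Sycp1, Syce3 and Lhx8 lie higher.

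Stra8 and Rec8, genes of meiotic entry, fell. Of the genes that act in prophase, Sycp1, Syce3 and Dmc1 rose, Hormad1 fell and most others did not pass. Of 19 tested members of the retinoic acid and meiotic entry list, 4 were lower and 1 was higher (median -0.32). Stra8, the retinoic acid target required for meiotic initiation, had signals of 261 and 251 in E16.5 ovaries, against 1574 and 1180 in E14.5 ovaries (log2 change -2.34 ± 0.21 (SE), adjusted p = 1.18e-04). Rec8, the meiotic cohesin subunit that retinoic acid also induces, read 38.7 and 45.6 in E16.5 ovaries, against 201 and 236 in E14.5 ovaries (log2 change -2.01 ± 0.32 (SE), adjusted p = 0.00825). Both E16.5 arrays lay far below both E14.5 arrays in each gene. The stages were likewise apart in every gene that passed and in 54.8% of genes tested. Zglp1, a GATA-like factor of oogenic fate named after its values were seen, read 52.5 and 48.6 at E16.5 and 122 and 127 at E14.5 (log2 change -1.08 ± 0.27 (SE), adjusted p = 0.0463).

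Among the carriers and receptors of retinoic acid, Crabp2, a cellular binding protein, fell and Rxra, a nuclear receptor partner, rose. Crabp2 read 75.2 and 67.4 at E16.5 and 170 and 197 at E14.5 (log2 change -1.19 ± 0.26 (SE), adjusted p = 0.027). Rxra read 213 and 268 at E16.5 and 85.4 and 93.3 at E14.5 (log2 change 1.28 ± 0.22 (SE), adjusted p = 0.0119). Aldh1a2, which makes retinoic acid, had a log2 change of -0.80, and Rara, a retinoic acid receptor, one of 1.18, neither past the test and both named after their values were seen. The degrading enzymes Cyp26a1 and Cyp26b1 were under the filter. The lower count was 2 without E16.5 replicate 1, 1 without E16.5 replicate 2, 1 without E14.5 replicate 1 and 1 without E14.5 replicate 2.

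Within the synaptonemal complex list, 2 of 8 tested members rose and 0 fell (median 0.06). Sycp1, the transverse filament protein, had signals of 1606 and 1649 in E16.5 ovaries, against 685.7 and 612 in E14.5 ovaries (log2 change 1.31 ± 0.25 (SE), adjusted p = 0.0175). Syce3, a central element protein that helps load the filaments, read 909 and 1528 in E16.5 ovaries, against 344 and 287 in E14.5 ovaries (log2 change 1.86 ± 0.26 (SE), adjusted p = 0.00361). Both genes were higher on both E16.5 arrays, as every higher call was, though the E16.5 values of Syce3 differed widely. The Sycp1 call was lost without any one of the 4 arrays. It was also lost with 1 added to the signals in place of 16 and without the intensity trend. Sycp3, of the lateral element, read 2215 and 1923 in E16.5 ovaries, against 2438 and 2523 in E14.5 ovaries (log2 change -0.26, adjusted p = 0.523).

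The other lateral and central element genes did not pass. Sycp2, the partner of Sycp3, read 795 and 768 at E16.5 and 762 and 558 at E14.5, and Syce2, a central element protein, read 2319 and 2499 at E16.5 and 2522 and 2769 at E14.5 (log2 changes 0.25 and -0.13, adjusted p = 0.562 and 0.754). Tex12, which forms fibres with Syce2, read 1055 and 818 at E16.5 and 1502 and 1800 at E14.5 (log2 change -0.81, adjusted p = 0.186). Their E16.5 and E14.5 arrays did not overlap, as in 54.8% of all genes tested. The count of higher members was 1 without E16.5 replicate 1, 0 without E16.5 replicate 2, 1 without E14.5 replicate 1 and 1 without E14.5 replicate 2.

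Cohesin and axis genes had 2 of 11 tested members lower, Rec8 and Hormad1, and 0 higher. Hormad1, a HORMA-domain protein of unsynapsed axes, had signals of 553 and 328 in E16.5 ovaries, against 900 and 858 in E14.5 ovaries (log2 change -1.01 ± 0.24 (SE), adjusted p = 0.0355). The meiotic cohesin subunit Smc1b read 1674 and 1680 at E16.5 and 1455 and 1153 at E14.5, and Stag3, another subunit, read 713 and 837 at E16.5 and 537 and 602 at E14.5 (log2 changes 0.37 and 0.43, adjusted p = 0.374 and 0.337). Neither of these subunits passed, and the difference between them and Rec8 was not tested. The count of lower members was 2 without E16.5 replicate 1, 0 without E16.5 replicate 2, 0 without E14.5 replicate 1 and 0 without E14.5 replicate 2.

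Of 14 tested genes for break formation and strand exchange, Dmc1 passed as higher and 0 passed as lower in the main fit. The 13 that did not pass had log2 changes from -1.67 to 0.89. With the mean of a gene's probe sets, 0 members were higher and 3 lower. The counts were 0 higher and 1 lower with the 4 arrays alone, and 2 higher and 1 lower with 64 added to the signals. Dmc1, the meiosis-specific recombinase, had signals of 516 and 494 in E16.5 ovaries, against 297 and 245 in E14.5 ovaries (log2 change 0.87 ± 0.22 (SE), adjusted p = 0.0441), while a second, dimmer Dmc1 probe set had a log2 change of -0.51. The Dmc1 call was lost without any one of the 4 arrays. Spo11, which cuts the DNA, read 301 and 281 in E16.5 ovaries, against 167 and 134 in E14.5 ovaries, a difference of like size that did not pass (log2 change 0.89 ± 0.27 (SE), adjusted p = 0.082). Prdm9, the histone methyltransferase that sets hotspots, read 155 and 115 at E16.5 and 124.9 and 122 at E14.5, and Mei1, required for breaks, read 138 and 97.1 at E16.5 and 99.98 and 95.9 at E14.5. Their values overlapped between stages, with log2 changes of 0.10 and 0.21.

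In the crossover and mismatch repair list, 1 of 12 tested members rose. Cntd1, a cyclin-like crossover factor, had signals of 1285 and 2331 in E16.5 ovaries, against 817 and 820 in E14.5 ovaries (log2 change 1.07 ± 0.27 (SE), adjusted p = 0.0483), but its other 2 probe sets had log2 changes of -0.82 and -0.21 and did not pass. Msh4 read 106 and 76.1 at E16.5 and 91.0 and 69.2 at E14.5 and its partner Msh5 read 75.4 and 116 at E16.5 and 36.4 and 99.2 at E14.5 (log2 changes 0.15 and 0.50, neither past the test). The Cntd1 call was lost without E16.5 replicate 2 and without either E14.5 array. Among 7 telomere genes, Terf1, which binds telomeric repeats, read 156 and 134 at E16.5 and 332 and 333 at E14.5 (log2 change -1.11 ± 0.19 (SE), adjusted p = 0.011), while its second probe set had a log2 change of 0.02.

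Germ cell RNA regulators had 2 of 25 tested members lower, Dazl and Ddx4, and 1 higher. Tdrd7, a Tudor-domain protein of germ granules, had signals of 314 and 340 in E16.5 ovaries, against 159 and 162 in E14.5 ovaries (log2 change 0.95 ± 0.22 (SE), adjusted p = 0.0326). The remaining members ran from -0.79 to 1.19. The Tdrd7 call was lost without any one of the 4 arrays, and the lower count was 1 without E16.5 replicate 1, 0 without E16.5 replicate 2, 0 without E14.5 replicate 1 and 0 without E14.5 replicate 2.

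Oocyte genes were near the floor or did not pass, with Lhx8 the exception. Lhx8, a LIM homeobox factor needed for oocyte differentiation, had signals of 65.2 and 57.9 in E16.5 ovaries, against 2.27 and 3.17 in E14.5 ovaries (log2 change 2.05 ± 0.27 (SE), adjusted p = 0.00288). Both E14.5 values were under background, so the level was at least 2.29-fold higher at E16.5. It was the 1 of 13 tested members to pass. Figla, a basic helix-loop-helix factor of the oocyte, read 363 and 302 at E16.5 and 273 and 199 at E14.5 (log2 change 0.48, adjusted p = 0.255).

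Sohlh2, another oocyte helix-loop-helix factor, read 174 and 154 at E16.5 and 238 and 261 at E14.5 (log2 change -0.56, adjusted p = 0.144). Gdf9, a growth factor secreted by oocytes, read 58.7 and 65.6 at E16.5 and 46.3 and 51.9 at E14.5 (log2 change 0.26, adjusted p = 0.605). Nobox (11.6 and 5.42 at E16.5 and 25.0 and 9.32 at E14.5) and Zp3 (11.8 and 28.8 at E16.5 and 13.0 and 6.66 at E14.5) were under the filter. Lhx8 passed without either E14.5 array and was not tested without an E16.5 array.

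The plots by embryonic day place these changes in the time course, with E11.5 and E18.5 arrays from other wash runs, so that stage and wash run cannot be told apart outside the E16.5 and E14.5 pair. Comparisons of adjacent stages share arrays, and each is given by its own values. Stra8 read 30.9 and 27.9 at E11.5, 1574 and 1180 at E14.5, 261 and 251 at E16.5 and 102 and 124 at E18.5, a single peak at E14.5. Rec8 also peaked at E14.5, with 7.09 and 3.77 at E11.5, 201 and 236 at E14.5, 38.7 and 45.6 at E16.5 and 33.2 and 47.3 at E18.5. Dmc1 peaked at E16.5, with 32.6 and 23 at E11.5, 297 and 245 at E14.5, 516 and 494 at E16.5 and 119 and 140 at E18.5.

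Sycp1 was highest at E18.5, with 5.63 and 24.5 at E11.5, 685.7 and 612 at E14.5, 1606 and 1649 at E16.5 and 2058 and 2154 at E18.5. Dppa3 followed another course, with 935 and 583 at E11.5, 805 and 705 at E14.5, 94.8 and 68.3 at E16.5 and 3353 and 3163 at E18.5. E16.5 was thus the lowest of the 4 stages for Dppa3, and its E18.5 minus E16.5 change was 5.08 on the log2 scale (adjusted p = 3.24e-07). Sox2 read 390 and 327 at E11.5 and 18.8 and 0.488 at E18.5, so that both later stages lay far below E14.5. Lhx8 read 1.35 and 3.15 at E11.5 and 1286 and 1203 at E18.5, so the E16.5 values lay between a level under background and a high one.

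**Figure D3:**
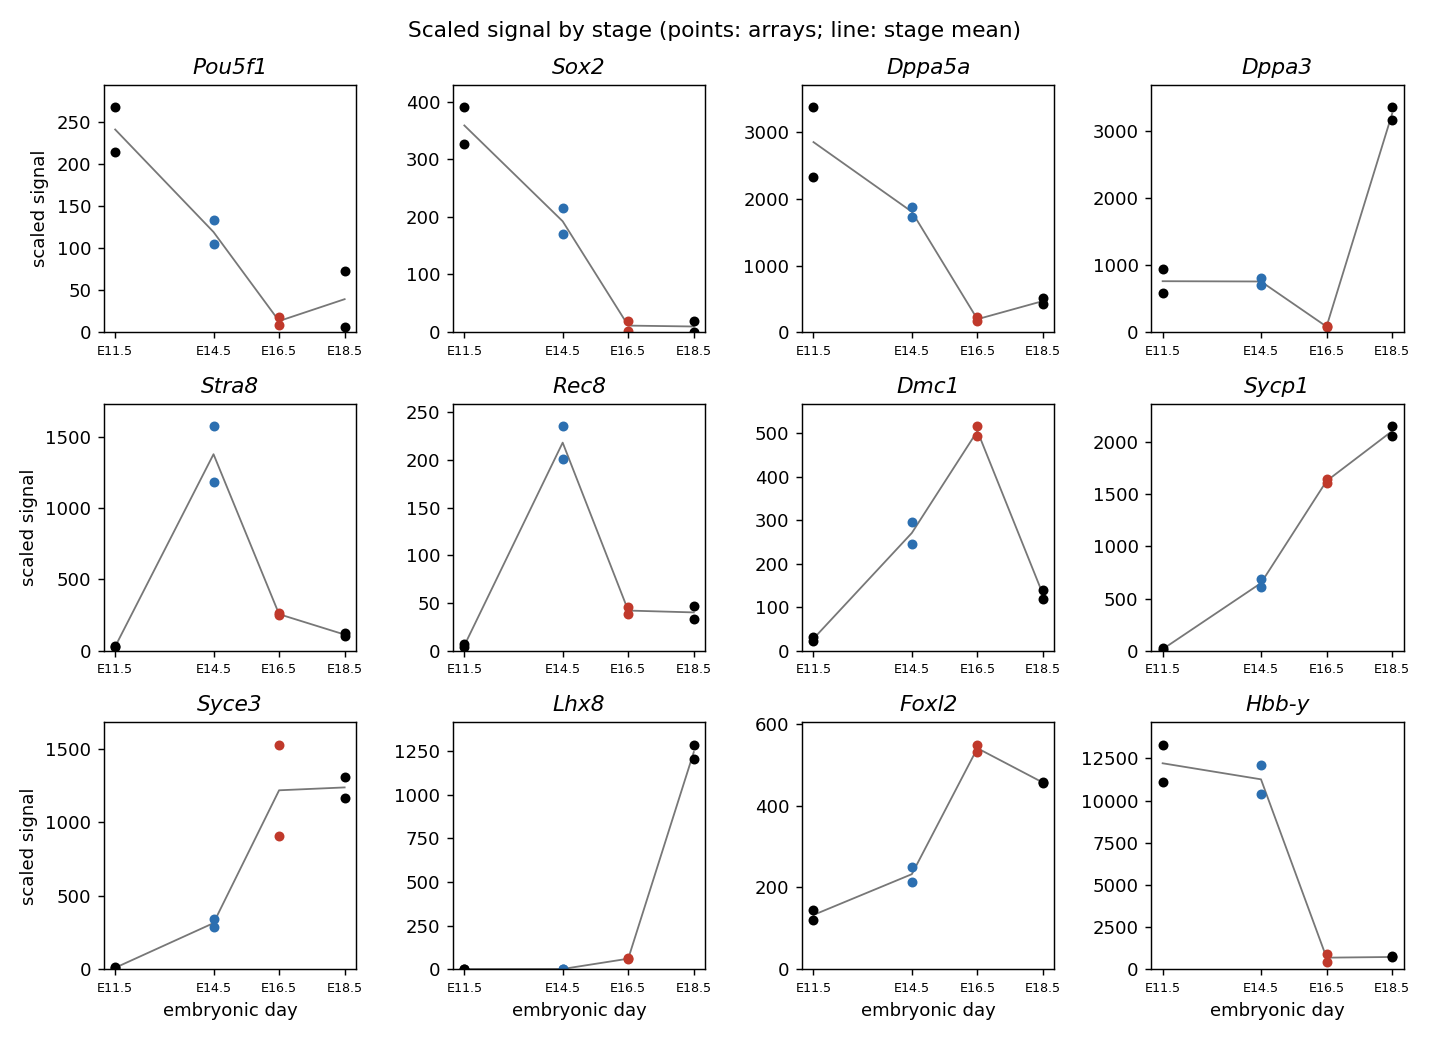
Scaled signal (linear axis from 0) of 12 genes by embryonic day; points are arrays, lines join stage means, E16.5 is red and E14.5 blue. Stra8 and Rec8 peak at E14.5, Dmc1 at E16.5, and Dppa3 is lowest at E16.5 and highest at E18.5.

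Genes of mitosis fell in part. All 29 tested members of the mitotic list had a negative change with a median of -0.60, and 7 passed. With the deposited scaling 28 of 29 were negative and the median was -0.54. Cdc20, the activator of the anaphase-promoting complex, had signals of 456 and 365 in E16.5 ovaries, against 1235 and 1405 in E14.5 ovaries (log2 change -1.65 ± 0.31 (SE), adjusted p = 0.0155), though its other 2 probe sets had log2 changes of -0.56 and -0.05. Kif2c, a microtubule-depolymerising kinesin, read 198 and 162 at E16.5 and 465 and 563 at E14.5 (log2 change -1.43 ± 0.27 (SE), adjusted p = 0.0164), and 2 of its 3 other probe sets also fell. Ccnb2, a mitotic cyclin, read 284 and 208 at E16.5 and 500 and 547 at E14.5, and Cenpa, the centromeric histone, read 281 and 302 at E16.5 and 532 and 671 at E14.5 (log2 changes -1.06 and -0.998, adjusted p = 0.0208 and 0.022).

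The other 3 that passed, outside the naming rule, were the kinase Cdk1 (-0.81), the spindle kinesin Kif11 (-0.84) and the checkpoint kinase Ttk (-0.86). The mitotic count was 4 without E16.5 replicate 1, 0 without E16.5 replicate 2, 0 without E14.5 replicate 1 and 0 without E14.5 replicate 2. DNA replication genes had 7 of 31 tested members lower and 0 higher (median -0.54). Prim1, the primase catalytic subunit, had signals of 484 and 401 in E16.5 ovaries, against 1356 and 1140 in E14.5 ovaries (log2 change -1.46 ± 0.25 (SE), adjusted p = 0.011), and its second probe set fell by 2.10 on the log2 scale. Pola1, the catalytic subunit of polymerase alpha, read 114 and 56.2 at E16.5 and 272 and 256 at E14.5 (log2 change -1.53 ± 0.27 (SE), adjusted p = 0.0114).

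Enzymes of nucleotide supply shared this fall. Rrm2, a subunit of ribonucleotide reductase, read 417 and 313 at E16.5 and 951 and 1275 at E14.5 (log2 change -1.57 ± 0.27 (SE), adjusted p = 0.0119), and Tk1, thymidine kinase, read 155 and 103 at E16.5 and 335 and 431 at E14.5 (log2 change -1.47 ± 0.23 (SE), adjusted p = 0.00647). Mcm7, of the replicative helicase, read 1183 and 807 at E16.5 and 2184 and 2567 at E14.5 (log2 change -1.26, adjusted p = 0.0113), and with Cdt1 (-1.13) and Gins1 (-0.96) it falls outside the naming rule. The replication count was 5 without E16.5 replicate 1, 0 without E16.5 replicate 2, 3 without E14.5 replicate 1 and 0 without E14.5 replicate 2.

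Promoter sequence is shown for 4 lower genes because their windows hold the same letters, 1 of them a meiotic gene, 1 a germ cell gene and 2 replication genes. Windows of RefSeq transcripts on GRCm38.p6, from 250 bases before to 50 after the start, were searched on both strands for TTCCCGC, the core of sites bound by E2F factors. At least 1 window held these letters in 48 of 305 lower genes with a window (15.7%), in 9 of 134 higher genes (6.72%), in 956 of 9676 tested genes (9.88%) and in 1429 of 27025 genes of the table (5.29%). On the gene lists, 8 of 42 lower genes with a window had the letters (19%), beside 61 of all 398 tested list genes with a window (15.3%). The 8 were Cdt1, Ddx4, Hmga2, Hormad1, Mcm7, Pola1, Prim1 and Uhrf1.

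The 250 bases before the start are given 5′ to 3′ in the direction of the gene for Hormad1 at chr3:95559427-95559676 on the plus strand, Ddx4 at chr13:112652311-112652560 on the minus strand, Mcm7 at chr5:138171267-138171516 on the minus strand and Prim1 at chr10:128014965-128015214 on the plus strand. Capitals mark TTCCCGC or its reverse complement GCGGGAA.
Hormad1: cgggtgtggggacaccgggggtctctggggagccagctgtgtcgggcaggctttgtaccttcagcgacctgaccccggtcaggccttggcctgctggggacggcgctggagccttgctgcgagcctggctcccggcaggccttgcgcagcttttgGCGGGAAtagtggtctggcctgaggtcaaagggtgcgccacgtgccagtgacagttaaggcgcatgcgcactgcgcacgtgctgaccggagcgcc
Ddx4: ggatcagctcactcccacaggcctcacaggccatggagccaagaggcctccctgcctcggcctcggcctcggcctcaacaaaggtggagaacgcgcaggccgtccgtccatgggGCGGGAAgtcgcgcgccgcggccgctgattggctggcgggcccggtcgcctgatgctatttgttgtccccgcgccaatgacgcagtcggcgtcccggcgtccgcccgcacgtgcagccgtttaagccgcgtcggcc
Mcm7: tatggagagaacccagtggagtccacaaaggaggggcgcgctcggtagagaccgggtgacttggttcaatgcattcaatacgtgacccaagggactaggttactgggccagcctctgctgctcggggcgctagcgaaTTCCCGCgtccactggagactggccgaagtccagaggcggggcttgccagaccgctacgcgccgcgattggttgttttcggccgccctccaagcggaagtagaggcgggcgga
Prim1: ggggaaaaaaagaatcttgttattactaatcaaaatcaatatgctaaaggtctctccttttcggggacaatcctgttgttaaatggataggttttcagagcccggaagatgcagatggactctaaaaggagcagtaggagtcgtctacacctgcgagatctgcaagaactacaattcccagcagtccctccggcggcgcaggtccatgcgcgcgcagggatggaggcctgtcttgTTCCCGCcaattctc
The letters ended 88 bases before the start in Hormad1, 129 in Ddx4, 106 in Mcm7 and 8 in Prim1. Hormad1 and Mcm7 each had a second annotated start, whose window also held the letters. In Prim1 they share 1 base with a CCAAT.

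The same windows were searched on both strands for 3 other motifs. CNCCTCAG, the motif described for STRA8 and MEIOSIN, was in 10.5% of lower genes, 14.9% of higher genes and 11.2% of tested genes. The octamer ATGCAAAT, bound by POU factors, was in 1.31% of lower, 2.99% of higher and 1.54% of tested genes. CCAAT, the letters bound by NF-Y, was in 52.8% of lower, 35.1% of higher and 43.1% of tested genes. In the whole table the shares were 9.12% for CNCCTCAG, 1.97% for ATGCAAAT and 41.1% for CCAAT. These shares describe letters in windows and say nothing of binding.

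Cell cycle inhibitors and chromatin genes changed in small numbers. Cdkn1c, an imprinted inhibitor of cyclin-dependent kinases, had signals of 4061 and 5945 in E16.5 ovaries, against 2230 and 2312 in E14.5 ovaries (log2 change 1.11 ± 0.23 (SE), adjusted p = 0.0244), and Cdkn2d, another inhibitor, read 202 and 178 at E16.5 and 350 and 329 at E14.5 (log2 change -0.79 ± 0.19 (SE), adjusted p = 0.0417). They were the 2 of 17 tested members of the G1 list to pass. Of 17 apoptosis genes 0 passed limma's test, with 1 higher and 1 lower at an unadjusted p of 0.05. In the DNA methylation and chromatin list 3 of 22 tested members fell and 0 rose. Second probe sets of 2 of them, Uhrf1 and Scml2, had log2 changes of -0.14 and 0.23 and did not pass. The 3 were Uhrf1, which guides maintenance methylation (174 and 201 at E16.5 and 286 and 474 at E14.5), Ezh2, the Polycomb methyltransferase (414 and 393 at E16.5 and 722 and 843 at E14.5), and Scml2, a Polycomb protein (243 and 145 at E16.5 and 401 and 354 at E14.5). Their log2 changes were -0.92, -0.92 and -0.94, with adjusted p = 0.0456, 0.046 and 0.0482. Their count was 1 without E16.5 replicate 1, 0 without E16.5 replicate 2, 1 without E14.5 replicate 1 and 0 without E14.5 replicate 2.

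Phlda2 was among the lower genes named for their size. This imprinted growth regulator, known from the placenta, had signals of 9.90 and 29.5 in E16.5 ovaries, against 444 and 420 in E14.5 ovaries (log2 change -3.71 ± 0.43 (SE), adjusted p = 8.65e-04), at least 17.3-fold lower with both E16.5 values under background. It and Cdkn1c were the 2 of 17 tested imprinted genes to pass. The other 15 ran from -0.35 to 0.50. Cyct, the testis form of cytochrome c, read 65.4 and 76.4 in E16.5 ovaries, against 345 and 447 in E14.5 ovaries (log2 change -2.24 ± 0.23 (SE), adjusted p = 4.01e-04).

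Metabolic genes fell in part. In cholesterol synthesis 3 of 18 tested members were lower and 0 higher, namely Fdps (297 and 215 at E16.5 and 655 and 743 at E14.5), Idi1 (170 and 166 at E16.5 and 463 and 453 at E14.5) and Sqle (128 and 117 at E16.5 and 231 and 306 at E14.5). Their log2 changes were -1.41, -1.37 and -1.03 (adjusted p = 0.00455, 0.00578 and 0.0204). The count was 3 without E16.5 replicate 1, 0 without E16.5 replicate 2, 3 without E14.5 replicate 1 and 1 without E14.5 replicate 2. In glycolysis 2 of 16 were lower, the glucose transporter Slc2a3 (-1.21) and the kinase Pdk1 (-1.07), with adjusted p = 0.0442 and 0.0418. Other probe sets of Slc2a3 (-0.66) and Pdk1 (-0.39 and -0.15) did not pass. Among 15 ribosomal protein genes Rpl14 was lower (-0.82, adjusted p = 0.0489). All of these calls were lost with the 4 arrays fitted alone. The Rpl14 call was lost without any one of the 4 arrays. Those of Slc2a3 and Pdk1 were lost without E16.5 replicate 2 and without either E14.5 array.

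Pregranulosa genes rose in part, with 4 of 20 tested members higher, 0 lower and a median change of 0.39. Foxl2, the forkhead factor that maintains granulosa identity, had signals of 548 and 531 in E16.5 ovaries, against 251 and 214 in E14.5 ovaries (log2 change 1.17 ± 0.19 (SE), adjusted p = 0.00908), and its second probe set had a log2 change of 1.03. Krt19, a keratin of the ovarian surface and pregranulosa cells, read 662 and 1039 in E16.5 ovaries, against 262 and 314 in E14.5 ovaries (log2 change 1.48 ± 0.24 (SE), adjusted p = 0.00837). Gng13, a G protein subunit of fetal ovarian somatic cells, read 303 and 687 in E16.5 ovaries, against 215 and 130 in E14.5 ovaries (log2 change 1.36 ± 0.32 (SE), adjusted p = 0.0355), and Hes1, a Notch target, read 312 and 321 in E16.5 ovaries, against 144 and 164 in E14.5 ovaries (log2 change 0.97 ± 0.19 (SE), adjusted p = 0.0204). Both E16.5 arrays lay above both E14.5 arrays in all 4, as in every higher call (stages apart in 54.8% of genes tested).

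Signals of the ovarian somatic pathway did not pass in most cases. Wnt4 read 533 and 533 at E16.5 and 380 and 364 at E14.5, and Rspo1, which strengthens Wnt signalling, read 406 and 360 at E16.5 and 440 and 582 at E14.5 (log2 changes 0.50 and -0.39, adjusted p = 0.209 and 0.296). Fst, the activin antagonist, read 674 and 610 at E16.5 and 464 and 517 at E14.5 and Bmp2 read 317 and 311 at E16.5 and 558 and 486 at E14.5 (log2 changes 0.38 and -0.70, adjusted p = 0.358 and 0.0716). The dimmer of the 2 Fst probe sets did pass, with 540 and 628 at E16.5 and 227 and 152 at E14.5 (log2 change 1.57, adjusted p = 0.0327). The R-spondin receptor Lgr5 had a log2 change of 0.39, the homeobox gene Irx3 one of 0.62 and the Kit ligand gene Kitl one of -0.21, none past the test. The 3 other Kitl probe sets had log2 changes from 0.21 to 0.52. The pregranulosa count was 4 without E16.5 replicate 1, 0 without E16.5 replicate 2, 1 without E14.5 replicate 1 and 1 without E14.5 replicate 2.

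Signalling lists each had 1 higher gene and 0 lower. These were 4.76%, 5% and 5.88% of the Wnt, activin and BMP, and Notch and Hedgehog lists, beside 1.48% of all genes. A single call says little about a list of this size. Sfrp1, a secreted Wnt antagonist and 1 of 21 tested Wnt genes, had signals of 809 and 549 in E16.5 ovaries, against 314 and 316 in E14.5 ovaries (log2 change 1.04 ± 0.21 (SE), adjusted p = 0.0204), and its 4 other probe sets ran from -0.40 to 1.32. Id1, a BMP target and 1 of 20 tested activin and BMP genes, read 1158 and 1283 in E16.5 ovaries, against 570 and 662 in E14.5 ovaries (log2 change 0.97 ± 0.19 (SE), adjusted p = 0.0169). Hes1 was the 1 of 17 tested Notch and Hedgehog genes to pass. The Sfrp1 call was lost without any one of the 4 arrays, and the Id1 and Hes1 calls were lost without E16.5 replicate 2 and without either E14.5 array.

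Early gonad genes moved both ways, with 2 of 14 tested members higher, Krt19 and Nr0b1, and 2 lower. Emx2, a homeobox factor of the gonadal and mesonephric epithelium, had signals of 471 and 321 in E16.5 ovaries, against 825 and 854 in E14.5 ovaries (log2 change -1.08 ± 0.22 (SE), adjusted p = 0.0225). Dmrt1, a factor of germ cells and Sertoli cells that is also on the testis list, read 22.4 and 40.9 in E16.5 ovaries, against 110 and 115 in E14.5 ovaries (log2 change -1.46 ± 0.28 (SE), adjusted p = 0.0164). In both genes the E16.5 arrays lay below the E14.5 arrays, as in every lower call (stages apart in 54.8% of genes tested). Of 7 steroidogenic genes tested, 0 passed limma's test and 0 had an unadjusted p under 0.05.

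Matrix genes of stroma rose in part, with 3 of 21 tested members past the test, 0 lower and 18 of 21 changes positive (median 0.42). Eln, elastin, had signals of 483 and 708 in E16.5 ovaries, against 174 and 204 in E14.5 ovaries (log2 change 1.56 ± 0.22 (SE), adjusted p = 0.00361). Col1a1, a chain of type I collagen, read 876 and 827 at E16.5 and 443 and 468 at E14.5, and Sparc, a collagen-binding matrix protein, read 3874 and 3653 at E16.5 and 1957 and 2124 at E14.5 (log2 changes 0.88 and 0.88, adjusted p = 0.047 and 0.0296). The 2 other Sparc probe sets had log2 changes of -0.02 and 0.02. The count was 1 without E16.5 replicate 1, 0 without E16.5 replicate 2, 1 without E14.5 replicate 1 and 1 without E14.5 replicate 2. Among class I histocompatibility genes, H2-D1 was the 1 of 6 to pass (804 and 1108 at E16.5 and 420 and 454 at E14.5, adjusted p = 0.0243), and close relatives of it may share its probes. The 3 other H2-D1 probe sets ran from -0.19 to 0.50 on the log2 scale and did not pass.

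**Figure D4:**
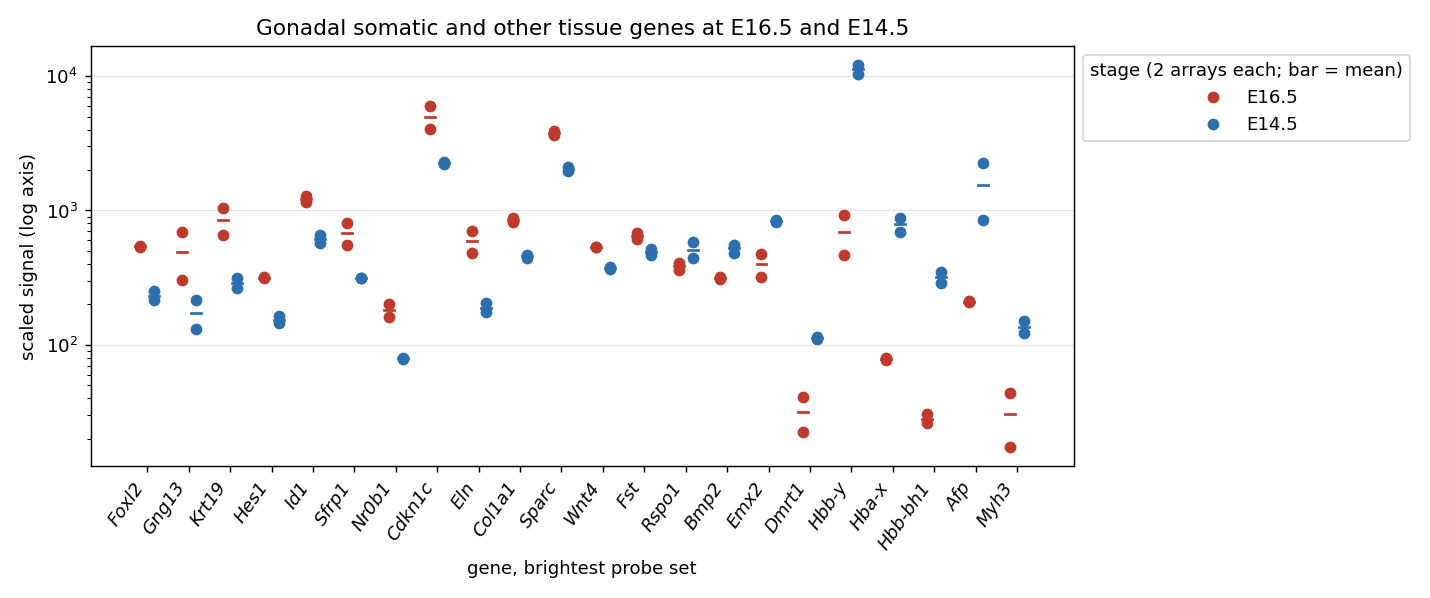
Scaled signal (log axis) of 22 somatic and other tissue genes on each array, E16.5 in red left of E14.5 in blue; bars are the means of 2 arrays. Foxl2, Krt19, Eln and Cdkn1c lie higher at E16.5 and the embryonic globins, Afp and Myh3 lower.

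Some markers of other tissues fell. Embryonic globins, made by primitive red cells, were lower, 3 of 7 tested erythroid genes. Hbb-y had signals of 926 and 469 in E16.5 ovaries, against 10410 and 12100 in E14.5 ovaries (log2 change -4.06 ± 0.28 (SE), adjusted p = 1.04e-05), Hba-x read 76.8 and 80.2 at E16.5 and 693 and 881 at E14.5 (log2 change -3.08 ± 0.21 (SE), adjusted p = 1.04e-05), and Hbb-bh1 read 25.9 and 30.4 at E16.5 and 349 and 290 at E14.5 (log2 change -2.92 ± 0.25 (SE), adjusted p = 8.43e-05). The erythroid markers summed to 2557 and 2382 at E16.5 and 13100 and 14920 at E14.5. The erythroid enzyme Alas2 and the factor Gata1 did not pass, with log2 changes of 0.59 and 0.53, and the adult globin Hba-a1 was under the filter at both stages. The adult globins Hbb-b2 and Hba-a2 are not on the list and were named after their values were seen. One Hbb-b2 probe set rose, with 388 and 681 at E16.5 and 229 and 272 at E14.5 (log2 change 1.00 ± 0.25 (SE), adjusted p = 0.0444). The other did not pass, with 302 and 371 at E16.5 and 420 and 601 at E14.5 (log2 change -0.57, adjusted p = 0.166), and neither did Hba-a2 (log2 change 0.59, adjusted p = 0.277).

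Afp, alpha-fetoprotein of fetal liver and yolk sac, read 211 and 207 in E16.5 ovaries, against 850 and 2252 in E14.5 ovaries (log2 change -2.64 ± 0.33 (SE), adjusted p = 0.00183), and the E14.5 arrays differed widely. The summed liver markers were 741 and 1154 at E16.5 and 1450 and 3641 at E14.5, and Alb had a log2 change of -0.21. Skeletal muscle genes had 3 of 7 tested members lower, namely embryonic myosin Myh3 (17.3 and 44.0 at E16.5 and 122 and 150 at E14.5), cardiac actin Actc1 (68.0 and 104 at E16.5 and 194 and 279 at E14.5) and the myosin light chain Mylpf (91.2 and 68.5 at E16.5 and 203 and 207 at E14.5). Their adjusted p values were 0.0365, 0.0414 and 0.0356. The muscle markers summed to 953 and 1309 at E16.5 and 1490 and 1748 at E14.5, and the muscle factors Myod1 and Myf5 were under the filter.

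The pancreatic enzyme gene Cpa1 fell as well (36.2 and 22.3 at E16.5 and 89.8 and 95.3 at E14.5, adjusted p = 0.0336), 1 of 3 tested pancreatic genes. Actc1 and Mylpf lost their calls without any one of the 4 arrays. Myh3 lost its call without either E16.5 array and was not tested without an E14.5 array. In limma's test 0 of 12 endothelial, 0 of 6 smooth muscle, 0 of 12 macrophage and 0 of 9 neural genes passed. At an unadjusted p of 0.05 these lists had 2 higher endothelial genes, 1 higher macrophage gene, 4 lower neural genes and no smooth muscle gene. The share of attached tissue or blood in each preparation, and its part in the other results, was not tested.

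Genes named for the size of their increase belonged to no list apart from Syce3. Bzw2, which encodes a protein with an initiation factor domain, had signals of 1616 and 2285 in E16.5 ovaries, against 60.5 and 58.7 in E14.5 ovaries (log2 change 4.68 ± 0.20 (SE), adjusted p = 8.74e-08), while its other probe set had a log2 change of -0.25. At E18.5 the Bzw2 probe set read 14780 and 13290. Ccnb3, a cyclin of meiotic cells, read 190 and 198 in E16.5 ovaries, against 40.8 and 53.2 in E14.5 ovaries (log2 change 1.74 ± 0.27 (SE), adjusted p = 0.00647), and Mfap4, a matrix protein, read 452 and 138 in E16.5 ovaries, against 17.9 and 27.9 in E14.5 ovaries (log2 change 2.80 ± 0.57 (SE), adjusted p = 0.0215). Hif3a, a relative of the hypoxia factors, read 591 and 989 in E16.5 ovaries, against 219 and 232 in E14.5 ovaries (log2 change 1.69 ± 0.24 (SE), adjusted p = 0.00455), though its 2 other probe sets had log2 changes of -0.23 and 0.32.

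Copb2, a coat protein of transport vesicles, read 2454 and 5100 in E16.5 ovaries, against 1231 and 965 in E14.5 ovaries (log2 change 1.69 ± 0.33 (SE), adjusted p = 0.0175), and its other probe set had a log2 change of 0.23. The remaining 9 increases had log2 changes from 1.70 to 2.10 (Gga1, Paqr5, Cdc42ep2, Ms4a15, Ssmem1, Plcxd1, Pi4kb, Morn5 and Mapk7). In 5 of them, Mapk7, Morn5, Plcxd1, Ssmem1 and Ms4a15, both E14.5 values were under background, and the level was at least 4.55-, 3.61-, 4.57-, 4.68- and 3.81-fold higher. Plcxd1 passed under every alternative in which it was tested apart from the fit of 10 arrays.

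Probe sets of 1 gene did not always move together. Of 278 genes that passed and had another probe set tested, all the others shared the sign in 172, and 2 genes had another probe set called the other way. These were Gigyf2 (0.90 for the brightest, -1.19 for the other) and Sfpq (0.77 for the brightest, -1.16 and -1.23 for the others), named because they are the exceptions. Several called sets, among them those of Cdc20, Kif2c, Rrm2, Cntd1 and Hbb-y, carry the array maker's suffix for probes that may match other sequences.

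**Figure D5:**
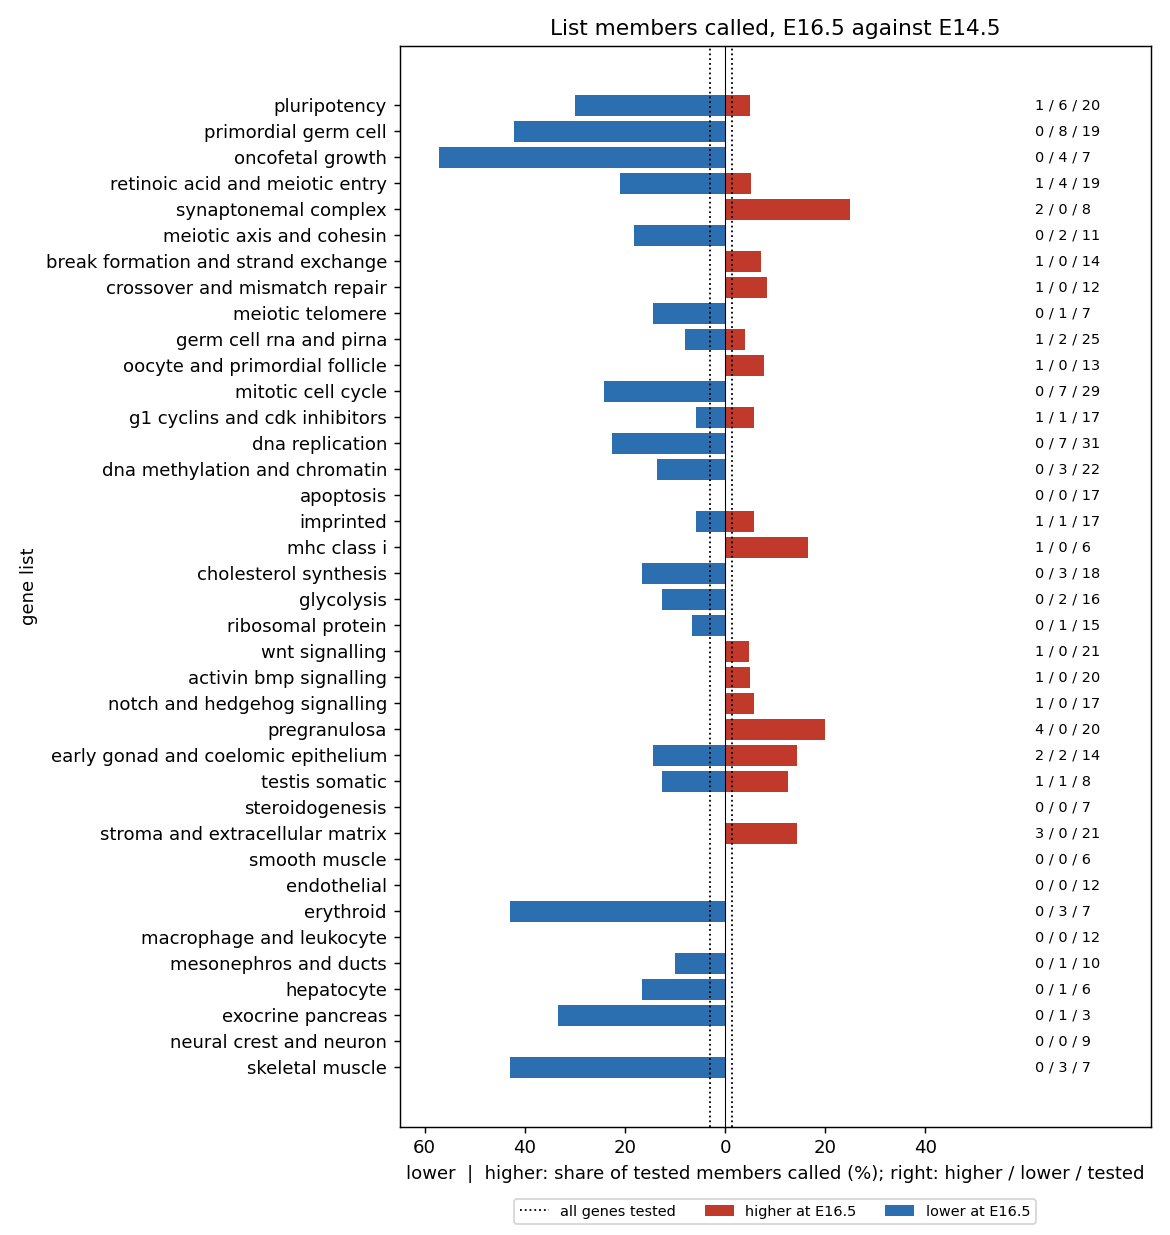
Share of tested members called higher (red, right) and lower (blue, left) at E16.5 for 38 gene lists, with the counts higher, lower and tested at the right edge; dotted lines mark 1.48% higher and 3.08% lower over all genes. Oncofetal growth, erythroid, skeletal muscle and primordial germ cell lists have the largest lower shares, and synaptonemal complex and pregranulosa the largest higher shares.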

How the data were processed

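Whole embryonic ovary RNA was hybridised to 10 oligonucleotide arrays, 2 per stage. The deposited table held intensity values, 1 linear signal per probe set; the authors had scaled them to a like trimmed mean (2% trimmed from either end), since all 10 share that mean, with software not given in the sources used here. Of other content, the experiment files deposited with the arrays recorded wash and scan settings, which gave 3 wash runs. Of 45101 probe sets, 64 controls were left out. Symbols came from the platform annotation, with 34945 probe sets having 1 symbol, 932 several and 9160 none; none was named from several.

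Arrays were brought to 1 shared 75th percentile, and log2(signal + 16) was fitted with limma 3.58.1 in R 4.3.3 (a mean for each stage, eBayes with trend, no replicate block) on 8 arrays, all but those of E12.5. The contrast was E16.5 minus E14.5, two-sided, with Benjamini-Hochberg adjustment over all probe sets tested at 0.05. A probe set was tested if at least 2 of the 4 arrays reached the median of their scaled values. A fold on this scale understates the change of dim genes. Both E12.5 arrays were left out because one failed to correlate with the rest and the other had a raised 3′ to 5′ ratio (10.6 for Actb). The number of arrays limits the precision. A probe set at or under background on both arrays of a stage has only a bound there. The bound is the other stage's geometric mean over the geometric mean of, per array, the higher of the background and the measured value.

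Named genes were the 15 largest increases and 15 largest decreases that passed, with stages that did not overlap and a mean signal of at least 100 in the higher stage, the 4 largest called changes of each list, and a set of germ cell and somatic genes named whatever their result. The genes and lists were chosen with earlier results of these data known. In simulations of this comparison over 23729 probe sets, 37.9% of 2-fold and 94.5% of 4-fold changes were recovered, with 6.65% and 6.80% false calls. Each simulation changed 200 probe sets and drew independent normal noise, with no effect shared by the values of an array. The rates therefore do not cover differences between whole arrays. Alternatives were the arrays fitted, the scaling, the value added, the filter, the trend, array weights, a replicate block, the mean of a gene's probe sets and each array left out.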

Additional observations from a re-analysis of the deposited data

Results flagged for a closer look

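The control probe sets for 18S ribosomal RNA, which no comparison above uses, gave more signal at E16.5 than at E14.5. The ratio of the stage means was 2.45 for the 3′ set, 3.76 for the 5′ set and 2.11 for the middle set. The 3′ set read 1972 and 3157 at E16.5, against 1123 and 966 at E14.5. The 5′ set read 542 and 1156 at E16.5, against 276 and 176 at E14.5, and the middle set read 467 and 1142 at E16.5, against 428 and 336 at E14.5. E16.5 replicate 2 was the highest of the 4 arrays for each set.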

How the results depend on the processing

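Counts are given as probe sets, genes, list members and named genes that passed, which were 940, 544, 78 and 84. Among the named genes, no call changed direction under any alternative in which the gene was tested. For the other probe sets and genes, direction was not compared between alternatives. The counts were 0 in each class with all 10 arrays and 452, 272, 51 and 56 with the 4 arrays alone. They were 291, 166, 41 and 47 without the filter, and 283, 146, 32 and 39 without the intensity trend. With 1 array left out they ran from 40 to 813 probe sets, 23 to 465 genes, 12 to 54 list members and 14 to 56 named genes, the lone array being assumed to vary like the other stages. Under the other scalings, values added, array weights and 9 arrays, probe sets ran from 720 to 1305, within 1.5 times. The share of higher calls, 36.5%, was 47.0% with the deposited scaling (median change over all probe sets 0.05) and 45.3% after quantile normalization. With the mean of a gene's probe sets, 87 list members and 71 named genes passed. The duplicate numbers did not pair the arrays (correlation of deviations 0.02 between E16.5 and E14.5), and with a replicate block 871, 496, 71 and 79 passed, 813 of the probe sets shared. The cause of the drop with the 4 arrays alone and without the trend was not tested, and removing the filter brought the probe sets tested to 45037. Of the 84 named genes that passed, 15 passed under every alternative in which they were tested apart from the fit of 10 arrays. Few arrays and dim signals limit what can be called. Ribosomal protein genes had a median change of 0.05, of 0.12 with the deposited scaling and of -0.11 after quantile normalization.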
